A study of Mus musculus with 2 samples.

Results

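The Ikaros family of zinc finger transcription factors was described here through 4 genes, Ikzf1 (Ikaros), Ikzf2 (Helios), Ikzf3 (Aiolos) and Ikzf4 (Eos), out of 32285 genes counted in both libraries. The genes were chosen by family membership with their values in these 2 libraries already known, and the levels, the shares of cells and the differences between the libraries all belong to the readout that led to the choice. All of these are therefore given as descriptions, and no test was made on them. Ikzf5 (Pegasus), the remaining relative, was counted beside them.

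Both libraries came from mice with lenvatinib-resistant hepatocellular carcinoma, and the comparison asks how the immune cells of such tumors differed once palbociclib, an inhibitor of the cell cycle kinases CDK4 and CDK6, was added to lenvatinib, an inhibitor of receptor tyrosine kinases. Wild-type male C57BL/6J mice of 6 to 8 weeks received human MYC, a guide against Trp53 and the sleeping beauty transposase by hydrodynamic injection into the tail vein, which gives Trp53KO/MYCOE tumors in the liver. Lenvatinib at 30 mg/kg was started 12 days later and had been given for 25 days before the groups were formed, so every mouse in both groups had seen the drug. One library was made from mice kept on lenvatinib (lenvatinib) and the other from mice given lenvatinib with palbociclib (combo), each from live CD45+ cells sorted from liver tumors. The number of mice behind a library is not named in the sources used here.

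With 1 library per treatment, no difference between the treatments could be tested, and treatment and library cannot be told apart. Every interval below is a 95% interval for counting error only. After cells with more than 6000 genes or more than 25% mitochondrial counts were left out, 14201 cells remained in the lenvatinib library and 11613 in the combo library, with a median of 5541 and 5754 unique molecular identifiers (UMIs, each 1 captured RNA molecule) per cell. The libraries shared 49 cell barcodes.

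Ikaros family proteins bind DNA through zinc fingers near one end and pair with each other through zinc fingers at the other end, and they recruit chromatin remodelling complexes, above all NuRD, that can silence or keep open lymphocyte genes. Ikaros is needed for lymphocyte development, Aiolos is prominent in mature B cells and activated lymphocytes, and Helios and Eos are known from regulatory T cells, where Helios marks a stable suppressive state and Eos works as a partner of Foxp3. Helios is also found in Ly49-positive regulatory CD8 T cells, in gamma-delta T cells and in immature or tissue-resident natural killer (NK) cells. Drugs that turn the cereblon ubiquitin ligase on Ikaros family proteins act at the second zinc finger.

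The coding sequence of that second finger is shown for the 4 genes. The finger is among those by which the family binds DNA, and cereblon drugs act at it. Its sequence also shows how alike the members are in this finger. It was read from the mouse genome build GRCm38 (mm10) with the GENCODE M21 annotation, on the coding strand from 5′ to 3′. Capitals mark the codons of the cysteine and histidine pairs that hold the zinc ion.
Ikzf1: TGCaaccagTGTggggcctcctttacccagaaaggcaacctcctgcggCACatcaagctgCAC
Ikzf2: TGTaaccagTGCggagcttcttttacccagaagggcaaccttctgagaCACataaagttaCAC
Ikzf3: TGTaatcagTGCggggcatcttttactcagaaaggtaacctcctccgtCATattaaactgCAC
Ikzf4: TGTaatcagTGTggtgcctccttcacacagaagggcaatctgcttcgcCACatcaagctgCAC

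These 63 bases lie at chr11:11754024-11754086 on the plus strand in exon 6 of Ikzf1, at chr1:69570581-69570643 on the minus strand in exon 5 of Ikzf2, at chr11:98488940-98489002 on the minus strand in exon 5 of Ikzf3, and at chr10:128640229-128640291 on the minus strand in exon 5 of Ikzf4. In this finger Ikzf1 and Ikzf4 were the closest pair, with 53 of 63 bases the same (84.1%). Ikzf2 shared 51 bases with Ikzf1 and 48 each with Ikzf3 and Ikzf4 (76.2%). The order was not the same in other fingers. In the first finger, not shown, Ikzf2 and Ikzf4 were the closest pair, with 54 of 63 bases the same (85.7%). The genes themselves span chr11:11685003-11772926 (Ikzf1), chr1:69531214-69687245 (Ikzf2), chr11:98464902-98546031 (Ikzf3) and chr10:128630843-128645991 (Ikzf4).

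Cells were placed in classes by the UMIs of a few gate genes, and the levels are summed counts of a gene per 1000000 UMIs (CPM) of the class. CD8 T cells (Cd3e, Cd8b1) numbered 2655 in the lenvatinib library and 2155 in the combo library, CD4 T cells (Cd3e, Cd4) 312 and 421, T cells with a Foxp3 UMI 336 and 48, and T cells with a Trdc UMI 386 and 246. NK cells (Ncr1, no Cd3) numbered 2089 and 931, B cells (Cd79a, Ms4a1) 408 and 500, and myeloid cells (monocytes or macrophages, neutrophils and conventional dendritic cells) 627 and 1622. The gates named 50.1% of cells in the lenvatinib library and 53.7% in the combo library. As a check on markers outside a class's own gate, Cd8a stood at 401 and 467 CPM in CD8 T cells and the T cell receptor gene Trac at 819 and 854 CPM in Foxp3 cells, whereas 3 hepatocyte genes summed to at most 19.0 CPM in the 7 classes. Neutrophil markers were not low outside myeloid cells. Under lenvatinib 5 of them summed to 421 (B cells) to 2982 CPM (CD4 T cells), and under combo to 2619 (Foxp3 cells) to 26854 CPM (B cells).

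Ikzf2 was by far highest in Foxp3 cells, with 2472 CPM (2399 to 2546) in the lenvatinib library and 1164 CPM (1040 to 1298) in the combo library. The median Foxp3 cell held 12 Ikzf2 UMIs under lenvatinib and 6 under combo, and 88.4% and 62.5% of these cells held 5 or more. Foxp3, the lineage factor of regulatory T cells (Tregs), was the gate itself, but Il2ra, the interleukin-2 receptor chain they carry, was also high there at 354 and 288 CPM.

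Below Foxp3 cells, the order of Ikzf2 levels was not the same in the libraries. CD4 T cells without a Foxp3 UMI came next under lenvatinib at 526 CPM (491 to 561), and they stood at 112 CPM (99.7 to 126) under combo. Trdc cells, the gamma-delta T cells by their gate, held 322 CPM (301 to 345) under lenvatinib and 207 CPM (186 to 229) under combo, so that they stood below CD4 T cells in the first library and above them in the second. CD8 T cells as a whole held 138 CPM (133 to 144) and 74.1 CPM (69.7 to 78.6). NK cells followed at 97.8 CPM (92.9 to 103) and 62.3 CPM (56.8 to 68.2), and plasmacytoid dendritic cells at 57.7 CPM (48.8 to 67.7) and 34.9 CPM (29.1 to 41.5). Within a library, none of these neighbouring intervals overlapped.

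B cells and myeloid cells came last. Ikzf2 had 54 UMIs in B cells of the lenvatinib library (34.4 CPM) and 9 in those of the combo library (3.42 CPM). Monocytes and macrophages held 39.0 and 4.25 CPM, and neutrophils 18.2 and 6.09 CPM. Among these low classes the intervals of B cells and of monocytes and macrophages overlapped in both libraries, and their order could not be resolved.

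To set the shares of cells with a UMI side by side, each cell was thinned to 2000 UMIs, which left out 77 and 33 shallower CD8 T cells, 17 and 6 Foxp3 cells, 26 and 17 B cells and 71 and 30 neutrophils. An Ikzf2 UMI was then found in 95.3% (92.4 to 97.3) of Foxp3 cells under lenvatinib and 81.0% (65.9 to 91.4) under combo. The corresponding shares of CD8 T cells were 15.01% and 9.24%, those of Trdc cells 35.6% and 26.6%, and those of NK cells 14.1% and 8.70%. B cells gave 3.14% and 0.621%, and neutrophils 2.82% and 0.893%, which was taken as the background that free RNA can give, so no expression was read from these shares. In the lenvatinib library 3 of the 408 B cells held at least 5 Ikzf2 UMIs, with 11 in one of them, so a few cells held a good part of the 54 UMIs of that class. Before thinning, B cells had a median of 3265 and 3561 UMIs per cell, against 6884 and 5619 in CD8 T cells. Unthinned, an Ikzf2 UMI was in 27.2% and 16.8% of CD8 T cells and in 6.37% and 1.60% of B cells.

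**Figure D1:**
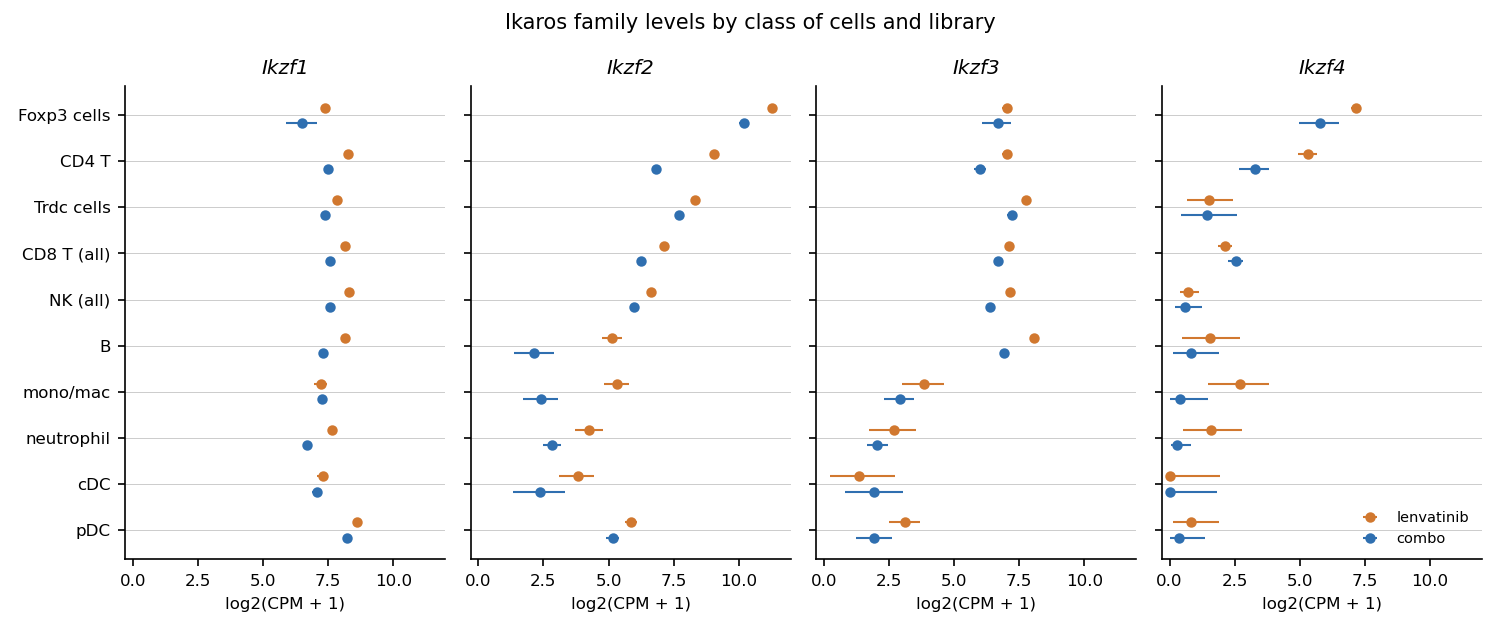
Levels of the 4 genes, as log2(CPM + 1) on the horizontal axis, in 10 classes of cells of the lenvatinib library (orange) and the combo library (blue), with exact 95% Poisson intervals. Ikzf2 and Ikzf4 reach their highest points in Foxp3 cells, Ikzf1 is present in every class, and Ikzf3 is near the left edge in myeloid and plasmacytoid dendritic cells.

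Ikzf4 had the narrowest distribution. It stood at 141 CPM (124 to 160) in Foxp3 cells under lenvatinib, from 252 UMIs, and at 54.0 CPM (30.2 to 89.1) under combo, from 15 UMIs. CD4 T cells held 38.6 CPM from 65 UMIs and 8.68 CPM from 22 UMIs. CD8 T cells held only 3.34 and 4.82 CPM, and no other main class had more than 10 Ikzf4 UMIs in a library. After thinning, 23.2% and 11.9% of Foxp3 cells held an Ikzf4 UMI, compared with 0.313% and 0.179% of neutrophils.

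Ikzf1, by contrast, was present throughout. Plasmacytoid dendritic cells had its highest level, at 388 CPM (364 to 413) under lenvatinib and 297 CPM (279 to 315) under combo. NK cells followed at 311 and 189 CPM, CD4 T cells at 302 and 181 CPM, B cells at 283 and 155 CPM and CD8 T cells at 280 and 190 CPM. The intervals of CD4 T, CD8 T and NK cells overlapped with one another in the combo library. Foxp3 cells, where Ikzf2 and Ikzf4 were highest, held 167 CPM (149 to 187) of Ikzf1 under lenvatinib and 90.1 CPM (58.3 to 133) under combo, below every other class of T cells in both libraries.

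Ikzf3 was a gene of lymphocytes. B cells held 270 CPM (245 to 297) under lenvatinib and 119 CPM (106 to 133) under combo, and Trdc cells 218 and 149 CPM. NK cells, CD8 T cells and CD4 T cells had 140, 138 and 130 CPM under lenvatinib, with overlapping intervals, and 81.3, 102 and 63.1 CPM under combo. Myeloid cells held 5.97 and 3.87 CPM, and plasmacytoid dendritic cells 7.69 and 2.77 CPM. In thinned cells, 39.8% and 21.7% of B cells had an Ikzf3 UMI compared with 0.940% and 0.714% of neutrophils.

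Foxp3 cells were next set against the CD4 T cells of the same library. Ikzf2 was higher in Foxp3 cells by a ratio of 4.70 (4.38 to 5.06) under lenvatinib and 10.4 (8.80 to 12.2) under combo. The ratios were larger against CD4 T cells that also lacked a UMI of 5 Treg genes (Il2ra, Ctla4, Tnfrsf4, Tnfrsf9 and Tnfrsf18). In those cells Ikzf2 stood at 182 and 49.4 CPM, in place of 526 and 112 CPM in all CD4 T cells. On a log2 scale, unlike the ratios above, the ratios against them were 3.76 and 4.56. As plain ratios to all CD4 T cells, Ikzf4 was higher by 3.66 (2.78 to 4.88) and 6.23 (3.01 to 12.6). Ikzf1 went the other way, at 0.553 (0.478 to 0.639) and 0.499. Ikzf3 was level under lenvatinib, with a ratio of 0.995, and stood at 1.60 under combo, where Foxp3 cells held 28 of its UMIs.

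A gene was taken as past the fold at a ratio of at least 1.5, or at most 1/1.5, among genes with at least 20 UMIs on one side. By this measure 2 of the 4 members were higher in Foxp3 cells under lenvatinib, where 13.8% of all genes were, and 3 under combo, where 21.6% of all genes were. Of 13 other Treg genes, 10 of 12 that could be measured were higher under lenvatinib and 8 of 9 under combo. They included Il2ra (5.97 and 10.2), the inhibitory receptor Ctla4 (2.97 and 3.59), the costimulatory receptors Tnfrsf4 (3.36 and 3.04), Tnfrsf9 (5.06 and 8.37) and Tnfrsf18 (3.19 and 2.30). The integrin Itgae (7.70) and Lrrc32 (5.52), which holds latent TGF-beta at the surface, were higher under lenvatinib, and under combo they were below the minimum, with 9 against 9 and 10 against 7 UMIs in Foxp3 and CD4 T cells. Nrp1, a surface receptor of thymus-derived Tregs, did not pass in either library (1.30 and 1.19). Only 55 of 8076 genes had a larger ratio than Ikzf2 under lenvatinib, and 4 of 7995 under combo.

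**Figure D2:**
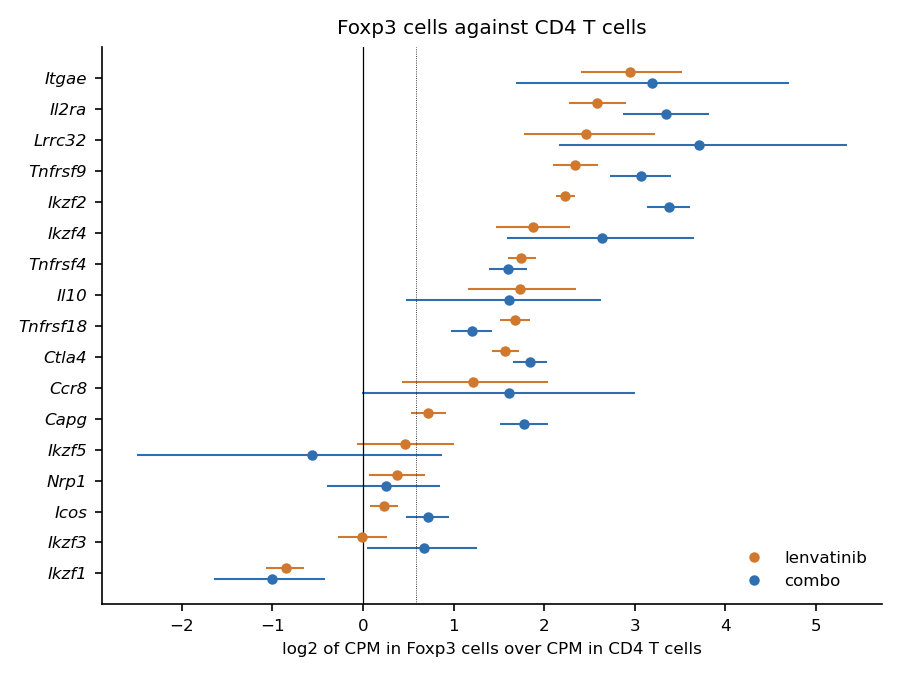
Ratio of the level in Foxp3 cells to that in CD4 T cells of the same library, on a log2 scale, for Treg genes and the Ikaros family, with exact 95% intervals for counting error and a dotted line at a ratio of 1.5. Ikzf2 and Ikzf4 lie among the Treg receptors in both libraries (4.70 and 10.4 for Ikzf2), while Ikzf1 lies to the left of 1.

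The CD4 T class holds every Cd4-positive T cell in which no Foxp3 UMI was captured, and Foxp3 stood at only 484 and 389 CPM in the cells gated on it. The 14 Treg genes summed to 1677 and 1681 CPM in CD4 T cells, with Icos the most abundant at 371 CPM in each library and Foxp3 at 0 by the gate. Of 12 measured Treg genes, 5 were lower under combo past the fold, where 23.6% of all genes were, among them Il2ra (59.3 and 28.4 CPM) and Itgae (19.0 and 3.55 CPM). None was higher past it, and Tnfrsf18 (1.37), Ctla4 (1.14) and Tnfrsf4 (1.11) had ratios above 1. In the 58 and 47 CD4 T cells with no UMI of Il2ra, Ctla4, Tnfrsf4, Tnfrsf9 or Tnfrsf18 either, Ikzf2 stood at 182 CPM (48 UMIs) and 49.4 CPM (12 UMIs). Ikzf4 had 3 and 2 UMIs in these cells, under the minimum, so no ratio was read for it. The part of Tregs without a Foxp3 UMI in the CD4 T levels was not tested beyond this.

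CD8 T cells were split by Klra6, a Ly49 receptor of innate-like and regulatory CD8 T cells, then by Pdcd1, the exhaustion and activation receptor PD-1, then by Gzmk, a granzyme of effector memory cells, each cell counting once. The Klra6 subset held 227 cells under lenvatinib and 69 under combo, the Pdcd1 subset 332 and 468, the Gzmk subset 580 and 737, and 1516 and 881 cells had none of the 3. Ly49 genes are near-identical copies, so counts of single Ly49 genes are uncertain.

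Ikzf2 was highest in the Klra6 subset, at 373 CPM (350 to 398) under lenvatinib and 326 CPM (289 to 367) under combo. The Pdcd1 subset held 195 CPM (178 to 213) and 83.5 CPM (73.7 to 94.3). The Gzmk subset held 133 CPM (121 to 145) and 45.8 CPM (39.7 to 52.6). Cells with none of the 3 genes held 80.1 CPM (75.1 to 85.2) and 54.6 CPM (49.0 to 60.6). Within the lenvatinib library the 4 intervals did not overlap, whereas under combo the Gzmk subset and the cells with none overlapped and had changed places.

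Relative to the cells with none, Ikzf2 in the Klra6 subset was higher by 4.66 (4.26 to 5.10) under lenvatinib and 5.98 (5.09 to 7.01) under combo. In the Pdcd1 subset the ratio was 2.44 (2.18 to 2.72) and 1.53 (1.30 to 1.80). Another contrast set all CD8 T cells with a Pdcd1 UMI against all CD8 T cells without one. Its ratios were smaller, and on a log2 scale, unlike the ratios above, they were 0.66 and 0.22. Against the cells with none, the ratio for the Gzmk subset was 1.66 (1.48 to 1.85) under lenvatinib but 0.839 (0.701 to 1.001) under combo, on opposite sides of 1. Thinning left the Klra6 subset on top, with an Ikzf2 UMI in 35.8% (29.6 to 42.5) and 37.7% (26.3 to 50.2) of its cells, and put the Gzmk subset at 14.9% and 6.69% and the cells with none at 10.4% and 6.66%. The 69 Klra6 cells of the combo library were also deep, with a median of 10709 UMIs each.

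**Figure D3:**
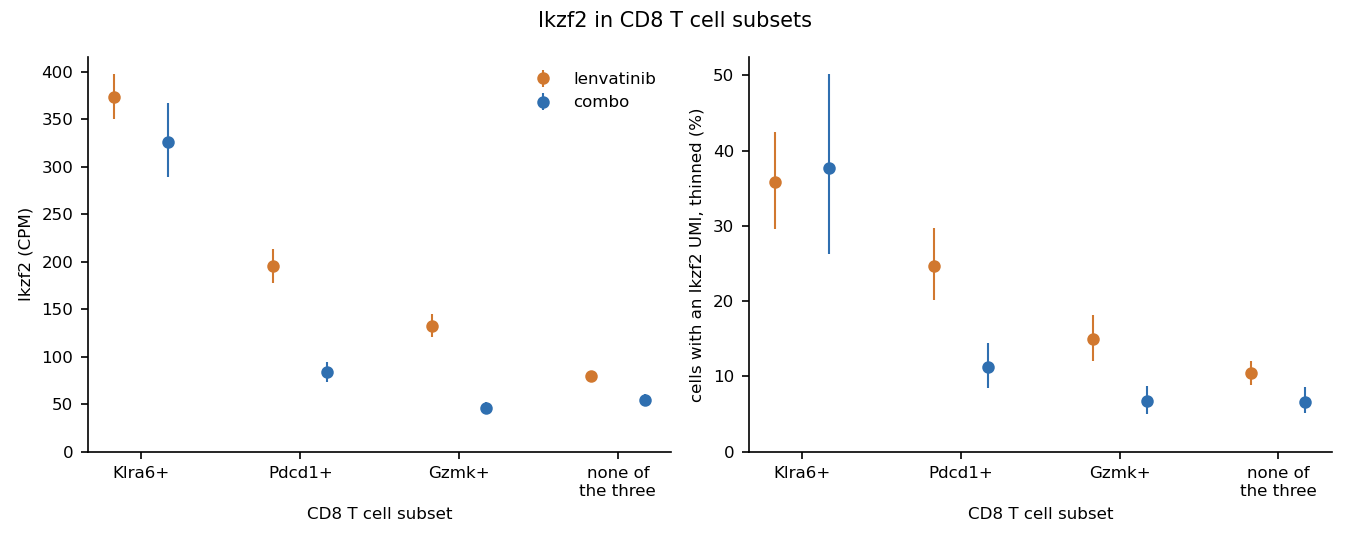
Ikzf2 in 4 exclusive subsets of CD8 T cells, as CPM (left) and as the percentage of cells with an Ikzf2 UMI after thinning to 2000 UMIs (right), with exact 95% intervals. The Klra6 subset is highest in both libraries (373 and 326 CPM), and the combo points lie below the lenvatinib points in the other subsets.

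The other members were arranged differently. Ikzf3 was highest in the Pdcd1 subset, at 252 CPM (232 to 272) under lenvatinib and 131 CPM (119 to 145) under combo, and next in the Gzmk subset, at 207 and 126 CPM. Against the cells with none, these were ratios of 2.45 and 1.77 for the Pdcd1 subset and 2.02 and 1.69 for the Gzmk subset. In the Klra6 subset, where Ikzf2 was highest, the Ikzf3 ratio was 0.996 and 1.04. Ikzf4 was sparse but higher in the Pdcd1 subset by 3.43 (1.84 to 6.28) and 3.02 (1.57 to 5.95), from 20 and 25 UMIs. Ikzf1 ratios lay between 0.859 and 1.05 over the 3 subsets and both libraries.

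Trdc cells and NK cells carried Ikzf2 outside the alpha-beta lineage. In Trdc cells it was higher than in CD8 T cells with none of the 3 genes by 4.03 (3.67 to 4.42) under lenvatinib and 3.79 (3.26 to 4.40) under combo. NK cells with Cd200r1 or Itga1, receptors of tissue-resident NK cells and type 1 innate lymphoid cells, held 119 and 97.7 CPM. NK cells with a Ly49 receptor and neither of these held 66.9 and 20.7 CPM, a ratio of 1.78 (1.58 to 2.00) and 4.73 (3.61 to 6.26) between the 2 kinds of NK cell. Thus a Klra6 UMI went with a high Ikzf2 level in CD8 T cells, and the Ly49 gate with the lower of these levels in NK cells.

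CD8 T cells with an Ikzf2 UMI were then set against those without. There were 721 and 1934 such cells under lenvatinib and 362 and 1793 under combo, and the cells with a UMI were deeper, with medians of 7492 against 6669.5 UMIs and 6922.5 against 5422. A gene was measured here if it had at least 50 CPM in either group of cells in both libraries and at least 10 UMIs in each group. Of 2542 such genes, 26 (1.02%) were higher by at least 1.5 in both and 1 (0.0393%) was lower, whereas 0 of the 2 members that could be measured, Ikzf1 and Ikzf3, passed the fold. Ikzf4, below this minimum, had ratios of 3.02 (40 and 30 UMIs) and 1.27 (18 and 53 UMIs). Among the 26 were Tcrg-C2, a marker of gamma-delta T cells, and H2-Aa, a marker of conventional dendritic cells. Tcrg-C2 was also past the fold in each alternative split. H2-Aa was not when cycling cells or cells with a Klra6 UMI were left out.

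Klra1 and Klra7, both Ly49 genes, had the largest ratios. Klra1 stood at 77.1 CPM with Ikzf2 and 7.23 CPM without under lenvatinib, a ratio of 10.7, and at 60.4 and 3.35 CPM under combo, a ratio of 18.0. Klra7 was higher by 5.81 and 9.78. Both genes reached the minimum of 50 CPM only in the cells with an Ikzf2 UMI. With cells split after thinning to 2000 UMIs the ratios were 5.35 and 7.91 for Klra1 and 4.85 and 5.23 for Klra7. Of 14 Ly49 and innate-like genes, 4 of the 7 that could be measured were past the fold, the other two being the chemokine Xcl1 (1.97 and 2.38) and the signalling adaptor Fcer1g (2.57 and 1.51). Fcer1g was not past the fold in both libraries with cells split after thinning (2.47 and 1.42) or with Klra6 cells left out (2.15 and 1.19). The other Ly49 genes did not reach the minimum, and their ratios were not alike, with 4.97 and 10.3 for Klra6, 1.91 and 1.89 for Klra3, 1.57 and 2.38 for Klra5, 1.68 and 1.11 for Klra8 and 2.51 and 0.998 for Klra9. With cells that held a Klra6 UMI left out, Klra1 had ratios of 7.65 and 14.4, from 45.7 and 33.0 CPM in cells with Ikzf2. These levels were under the minimum, as was that of Klra7 under combo (43.8 CPM), so neither gene was counted there.

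Tox, a nuclear factor of exhausted T cells, was past the fold as well (1.82 and 1.52), but not when the cells were split after thinning to 2000 UMIs (1.77 and 1.39). Of the 10 mitosis genes, 4 reached the minimum and 3 of these were higher, among them Ube2c, a ubiquitin-conjugating enzyme of mitosis (2.36 and 3.69). The histone gene Hist1h1b was higher by 2.32 and 2.21. Under combo these 4 mitosis genes and Hist1h1b reached 50 CPM only in the cells with an Ikzf2 UMI. There Ube2c stood at 67.8 CPM with and 18.4 CPM without such a UMI, and Hist1h1b at 65.3 and 29.6 CPM. With cells split after thinning, Ube2c had ratios of 1.38 and 1.88 and Hist1h1b of 1.47 and 1.37, and no mitosis or histone gene was past the fold in both libraries. Without the cells called cycling, for which Ube2c is one of the defining genes, the ratio of Hist1h1b was 1.81 and 0.987. H2-Ab1, a class II antigen-presentation gene, was higher by 2.36 and 2.27, whereas its ratio without cycling cells was 1.01 and 0.573. In both libraries H2-Ab1 reached 50 CPM only in the cells with an Ikzf2 UMI (92.4 against 39.2 CPM and 90.6 against 39.9 CPM).

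On the other side, Dapl1, a gene of naive and early memory CD8 T cells, had ratios of 0.362 and 0.343. It reached the minimum of 50 CPM only in the cells without an Ikzf2 UMI (97.7 against 35.4 CPM and 80.6 against 27.6 CPM). The other genes with the lowest ratios were Ccr7, the lymph node homing receptor (0.450 and 0.677), the T cell factor Lef1 (0.679 and 0.728), Cd6 (0.740 and 0.739) and the gate gene Cd8b1 (0.741 and 0.668). None of the 7 naive and stem-like genes was past the fold in both libraries, but Ccr7 was when cells with a Klra6 UMI were left out (0.471 and 0.647) and when the cells were split after thinning (0.287 and 0.635). The list had medians of 0.741 and 0.845 against 1.05 and 1.03 for all genes. None of the 5 effector memory genes was past it either.

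**Figure D4:**
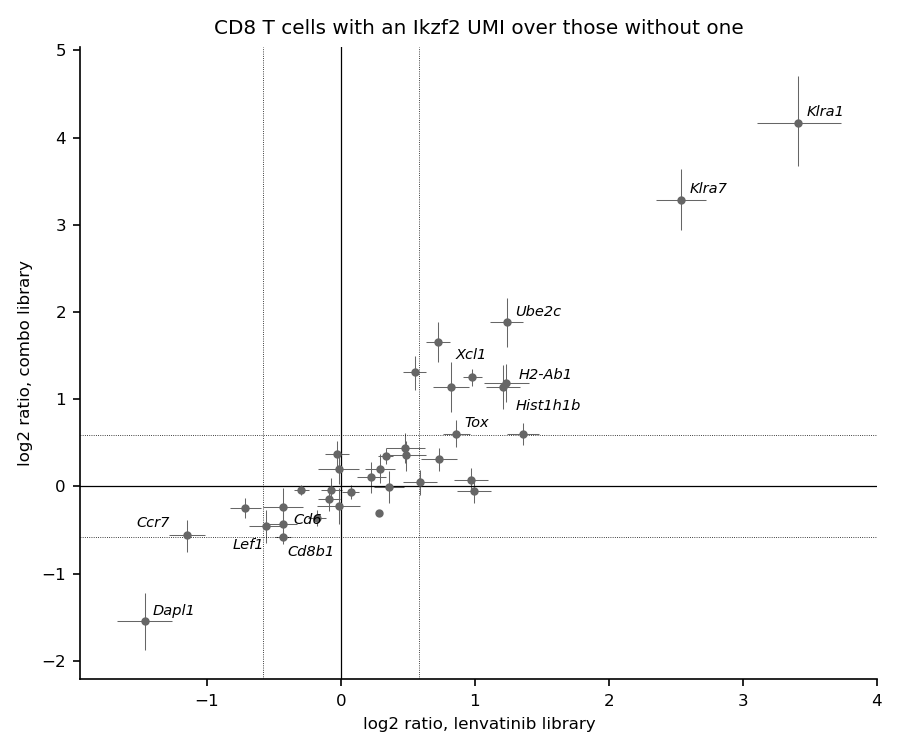
Ratio of CPM in CD8 T cells with an Ikzf2 UMI to CPM in those without, on log2 scales, for the lenvatinib library (horizontal) and the combo library (vertical), over 37 genes of the lists, with 95% intervals for counting error and dotted lines at 1.5 and 1/1.5. Klra1 and Klra7 stand apart at the upper right (10.7 and 18.0 for Klra1) and Dapl1 at the lower left.

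Between the libraries, Ikzf2 was lower under combo in every one of the 7 main classes. The ratio of combo to lenvatinib was 0.471 (0.419 to 0.527) in Foxp3 cells, where 29.6% of all genes were lower past the fold, and 0.214 (0.187 to 0.245) in CD4 T cells, where 23.6% were. It was 0.535 (0.498 to 0.574) in CD8 T cells against 14.3% of all genes, 0.641 in Trdc cells against 21.9%, and 0.637 in NK cells against 15.0%. In B cells it was 0.0996 (0.043 to 0.203) against 36.8%, and in myeloid cells 0.256 against 46.9%, both from levels near the background. The share of all genes with a lower ratio than Ikzf2 was 0.242% in CD4 T cells, 5.27% in CD8 T cells, 11.5% in NK cells, 12.6% in Foxp3 cells and 18.5% in Trdc cells.

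With all genes scaled to the median ratio of abundant genes, Ikzf2 was past the fold in 5 of the 7 classes, no longer in Trdc and NK cells, and its direction was the same in each class.

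Ikzf1 was past the fold in 4 of the 7 classes and Ikzf3 in 4, with ratios from 0.538 to 0.723 for Ikzf1 and from 0.441 to 0.780 for Ikzf3. Across the alternatives that cover all 7 classes, each was past it in 3 to 5, and with gates on 2 UMIs Ikzf1 and Ikzf2 were both past it in 5. In CD8 T cells Ikzf1 had a ratio of 0.679 and Ikzf3 of 0.735, neither past the fold. Ikzf4 was lower in CD4 T cells (0.225) and Foxp3 cells (0.383, 0.211 to 0.644), and higher but not past the fold in CD8 T cells (1.44, 1.02 to 2.03), where 7.64% of all genes were past it. Scaled to the median ratio, it was past the fold in CD8 T cells too. Ikzf5 had ratios under 1 in each of the 7 classes (0.339 to 0.764) and was past the fold in 4 of them. In the counts by class and by list below, lower and higher mean past the fold. By class, 4 of 4 members were lower in CD4 T cells (23.6% of all genes) and 3 of 4 in Foxp3 cells (29.6%), 1 of 4 in CD8 T cells (14.3%), 3 of 3 measured in NK cells (15.0%) and in B cells (36.8%), 2 of 3 in myeloid cells (46.9%; Ikzf2 and Ikzf3, both near the background there) and 1 of 3 in Trdc cells (21.9%). In the CD4 T cells without a UMI of the 5 Treg genes named above, where 34.9% of all genes were lower past the fold, the ratio was 0.271 (0.131 to 0.518) for Ikzf2, 0.197 (0.0675 to 0.476; 33 and 6 UMIs) for Ikzf3 and 0.675 for Ikzf1, the last not past the fold, and Ikzf4 could not be measured. With median scaling Ikzf1 was not past it in CD4 T cells. None was higher past the fold in NK cells, where 7.43% of all genes were. The median ratio of all genes was itself under 1 in every class, from 0.685 in myeloid cells to 0.913 in NK cells, and 0.907 in CD8 T cells.

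**Figure D5:**
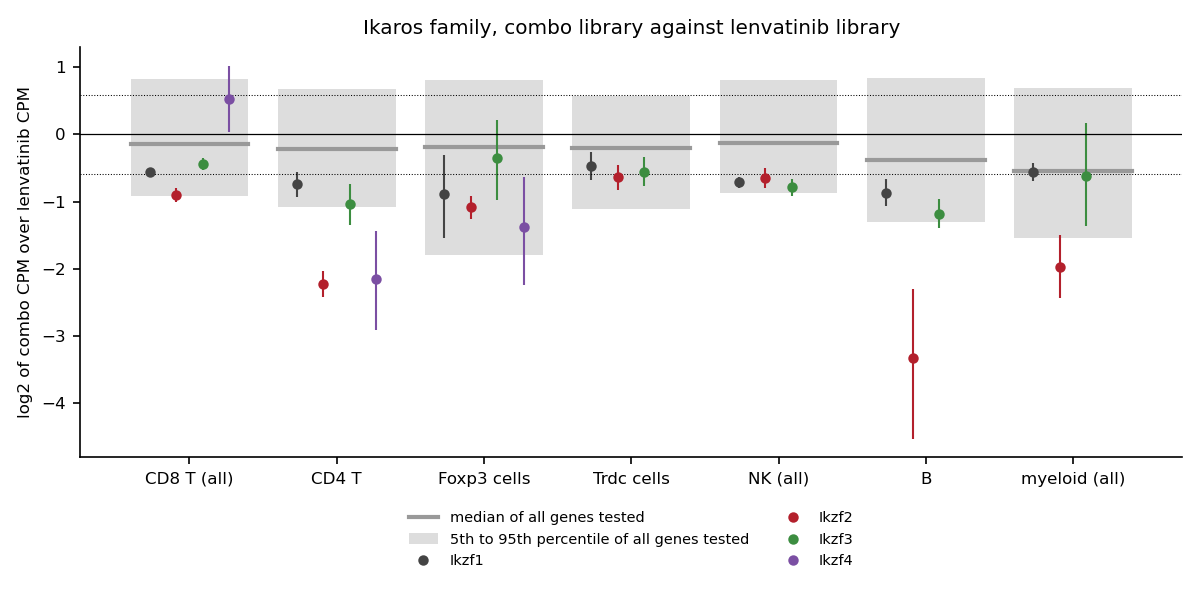
Ratio of combo CPM to lenvatinib CPM for the 4 genes in 7 classes, on a log2 scale, with exact 95% intervals for counting error, the median of all genes tested (grey line), their 5th to 95th percentiles (grey box) and dotted lines at 1.5 and 1/1.5. Ikzf2 (red) is below 0 in each class and furthest down in B cells (ratio 0.0996) and CD4 T cells (0.214), and Ikzf4 is shown where it had 20 UMIs in a library.

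The makeup of the CD8 T class also differed between the libraries, and its part in the Ikzf2 ratio was not tested beyond a reweighting. With the 4 subsets weighted as in the lenvatinib library, the combo level of Ikzf2 moved from 74.1 to 89.6 CPM and the ratio from 0.535 to 0.647, while that of Ikzf3 moved from 0.735 to 0.653. Within the subsets the Ikzf2 ratio was 0.875 for Klra6 cells, with an interval from 0.763 that reached 1. It was 0.428 for Pdcd1 cells, 0.345 for Gzmk cells and 0.682 for cells with none. The libraries differed in other ways in the same cells. Cycling cells, with UMIs of at least 2 of 10 mitosis genes, were 20.9% of CD8 T cells under lenvatinib and 5.71% under combo, and the Ikzf2 levels without them were 137 and 70.9 CPM. The 5 neutrophil markers summed to 852 and 10008 CPM in CD8 T cells, led by S100a8 at 441 and 4901 CPM. In NK cells the neutrophil genes took 0.189% and 2.36% of UMIs. The part of free neutrophil RNA in these ratios was not tested beyond a rescaling without those genes.

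Other markers were read in the B cells, Foxp3 cells and CD4 T cells of the libraries. B cells of the lenvatinib library held 52 UMIs of Igll1 and 55 of Vpreb1, the surrogate light chain genes of B cell precursors, against 0 and 0 under combo, and erythroid genes summed to 2715 and 4.18 CPM there. Plasma cell genes summed to 1022 and 6768 CPM. The 5 neutrophil markers summed to 421 and 26854 CPM in B cells, 2982 and 14480 CPM in CD4 T cells and 521 and 2619 CPM in Foxp3 cells. In Foxp3 cells, 3 of 13 measured Treg genes were lower under combo (Itgae 0.22, Lrrc32 0.55 and Il10 0.63), a share below the 29.6% of all genes, and 1 was higher, the actin-capping gene Capg (1.73). Of the Ly49 and innate-like genes, 6 of 9 measured were lower there and 2 higher, with a median of 0.293, among them Klra7 (64 and 0 UMIs), Klra1 (38 and 0 UMIs), Xcl1 (0.176) and Il2rb (0.416). Eomes, a factor of NK and memory CD8 T cells, had 40 and 0 UMIs. The 6 NK markers summed to 198 and 46.8 CPM in Foxp3 cells, led by Gzma at 112 and 25.2 CPM, with 1 and 2 of them at 0, and the 7 gamma-delta T markers to 94.6 and 0 CPM. In CD4 T cells the NK markers summed to 204 and 72.2 CPM, led by Gzma at 111 and 26.8 CPM, and the gamma-delta T markers to 157 and 62.3 CPM, led by Il17a at 106 and 33.5 CPM. There 5 of 9 measured Ly49 and innate-like genes and 9 of 10 mitosis genes were lower, against 23.6% of all genes. The part of these genes and of the cells they mark in the Ikzf2 ratios of Foxp3 and CD4 T cells was not tested. The Foxp3 values under combo come from 48 cells.

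The partners of the family were read from lists. NuRD, the remodelling complex that Ikaros proteins recruit, had 3 of its 12 genes lower in CD8 T cells and 0 higher, among them the helicase Chd4 (302 and 181 CPM, 0.60), Mta2 (0.63) and Gatad2b (0.59), with a median ratio of 0.748, where 14.3% of all genes were lower and their median was 0.907. It had 4 of 12 lower in CD4 T cells, against 23.6% of all genes, 2 in Foxp3 cells, below the 29.6% of all genes, 3 in NK cells, against 15.0%, and 8 in B cells, against 36.8%, with a median of 0.634 there. Of the other corepressors in CD8 T cells, 0 of 4 were lower and Ctbp2 was higher (2.39). Crbn, the cereblon substrate receptor, stood at 65.4 and 70.4 CPM in CD8 T cells (1.08), and 1 of the 5 genes of its ligase, the scaffold Cul4a, was lower (0.63). Of the known targets of the family, Il7r, the interleukin-7 receptor chain, was at 176 and 273 CPM in CD8 T cells (1.55) and Il2 had 46 and 38 UMIs (1.17). Dntt (6 and 24 UMIs) and Vpreb1 (20 and 5 UMIs) were at no more than 1.63 CPM there, and Dntt was at 1.04 and 2.77 CPM in NK cells, so no expression was read for either.

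Lists that mark CD8 T cell states were read in the same way. In CD8 T cells, 3 of 8 exhaustion genes were higher under combo (Pdcd1 2.11, Lag3 1.54 and Tigit 2.07) and 2 of 5 effector memory genes (Gzmk 1.90 and Ccl5 1.83), 7 of 14 Ly49 and innate-like genes were lower and 4 higher, and 10 of 10 mitosis genes were lower, with a median of 0.280. Among all genes, 7.64% were higher past the fold and 14.3% lower. None of the 8 exhaustion genes was lower past the fold, and their median ratio was 1.37. Tox, one of them, was lower under combo but not past the fold. It stood at 239 and 163 CPM in CD8 T cells with an Ikzf2 UMI, and at 132 and 107 CPM in those without. Among the naive and stem-like genes, Tcf7, a factor of stem-like T cells, was lower (0.63) and Il7r was higher.

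Finally, 8714 genes were ranked by how closely their level followed that of each member over 30 points, 15 exclusive classes in 2 libraries, by Pearson's r of log2(CPM + 1). The points share libraries and depth, and r is only a measure of likeness. Closest to Ikzf2 were Gm28112 (0.953), an RNA annotated inside an intron of Ikzf2 on the same strand, Peli1, a ubiquitin ligase (0.887), Ift80 (0.882), Il2ra (0.868) and Zdhhc15 (0.865). Closest to Ikzf4 were Izumo1r, the folate receptor of Tregs (0.921), Neb (0.914), Tnfrsf4 (0.896), Nrn1 (0.876) and Slc26a2 (0.868). Ikzf3 was followed most closely by Gimap8 (0.956), Cers4 (0.944), 4833403J16Rik (0.943), Gimap6 (0.938) and Xrcc5 (0.936), and Ikzf1 by Rapgef1 (0.829), mt-Atp8 (0.802), Ttc13 (0.800), Btbd7 (0.799) and Nxf1 (0.797). Among the members, Ikzf2 and Ikzf4 were the most alike (0.717), Ikzf2 and Ikzf3 came next (0.611), and Ikzf1 followed neither Ikzf2 (0.203) nor Ikzf4 (-0.154).

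The members were also read within single cells. In a separate thinning draw, 82 of 83 Foxp3 cells with an Ikzf4 UMI also held an Ikzf2 UMI under lenvatinib (98.8%) and 5 of 6 under combo, compared with 92.8% and 69.4% of Foxp3 cells without an Ikzf4 UMI, with overlapping intervals in each library. In CD8 T cells an Ikzf2 UMI was in 44.7% and 38.1% of cells with a Klra6 UMI, compared with 13.9% and 7.57% of those without. It was in 21.9% and 12.4% of cells with Pdcd1, compared with 14.4% and 7.26% without, and in 21.7% and 11.4% of cells with Tox, compared with 12.4% and 6.86% without. Cells with a Gzmk UMI gave 18.7% under lenvatinib, compared with 14.04% of cells without, and 7.86% under combo, compared with 7.87%. By Ikzf1, the shares with an Ikzf2 UMI were 14.2% of CD8 T cells with it and 15.4% of those without under lenvatinib, and 8.11% and 7.76% under combo, with overlapping intervals in each library.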

How the data were processed

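Single-cell 3′ libraries were made by the authors from sorted live CD45+ cells and counted with Cell Ranger (5.0.1 in the submitters' notes, 6.0.1 in the matrix headers) on mm10, and the deposited values are raw UMI counts per gene and cell. The 4 members, the gates and the gene lists were chosen with earlier results of these data known. Cells over 6000 genes or 25% mitochondrial counts were removed (308 of 14509 and 376 of 11989). Counts were summed per class and library and divided by the class total to give CPM, with exact Poisson, conditional binomial and Clopper-Pearson 95% intervals. No count model was fitted, because each treatment has 1 library. Shares of cells were taken after thinning to 2000 UMIs, with shallower cells left out. Scrublet called 4.46% and 2.76% of cells doublets, which were kept and removed in an alternative. The named genes were the members, Ikzf5, the lists and markers, the 5 genes most like each member, and the 5 with the highest and lowest ratios by Ikzf2 in CD8 T cells. An item of the lists is not reported here. The steps were tested on simulated data. Python 3.11.15, numpy 2.4.6, pandas 2.3.3, scipy 1.17.1, scanpy 1.11.5 and matplotlib 3.10.9 were used.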

Additional observations from a re-analysis of the deposited data

How the results depend on the processing

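No paired analysis was possible because each treatment has 1 library, and no library could be left out for the same reason. Between the libraries, no ratio of a member that was past the fold changed direction under an alternative. Ikzf2 was past it in 7 of 7 classes, but in 6 with stricter cell filters or a total without ribosomal, mitochondrial and hemoglobin genes (not Trdc cells), and in 5 with median scaling or gates on 2 UMIs (not Trdc and NK cells). Ikzf4 in CD8 T cells passed it upward with median scaling (0.64) and without cycling cells (0.66). Ikzf3 in Foxp3 cells, not past it in the main setting, was lower past it without the cell filter (-0.66). With gates on 2 UMIs it stood at 0.02. Values are log2 ratios of combo to lenvatinib, unless named otherwise, and only those that moved beyond the counting interval are given; the cause was not tested. Without the cell filter Ikzf2 was -1.34 in Foxp3 cells and -1.40 in myeloid cells. With neutrophil genes out of the total, Ikzf1 was -0.29 in myeloid cells. Scaling to the median gene gave -0.44, -0.60 and -0.23 for Ikzf1 in CD8 T, B and myeloid cells, -0.79 for Ikzf2 in CD8 T cells, and -0.33 and -0.91 for Ikzf3 in CD8 T and B cells; it shifted all genes by 0.11 (CD8 T), 0.16 (CD4 T) and up to 0.33 (myeloid). Mean CPM per cell gave -0.63 and -0.74 for Ikzf1 in NK and myeloid cells, -1.01, -0.92 and -0.83 for Ikzf2 in CD8 T, Foxp3 and NK cells, and -0.86 for Ikzf3 in B cells. Gates on 2 UMIs gave -0.63 for Ikzf1 in NK cells, and -2.55 and -0.89 for Ikzf2 in CD4 T and Foxp3 cells. Without cycling cells Ikzf2 in CD4 T cells was -2.45.

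Of the alternatives chosen after seeing the data, CD4 T cells without Treg gene UMIs gave -1.88 for Ikzf2, -2.34 for Ikzf3 and, from 3 and 2 UMIs and so not read, -0.47 for Ikzf4, and equal makeup of CD8 T cells gave -0.63 for Ikzf2 and -0.61 for Ikzf3. Removing shared barcodes or B cells with precursor UMIs moved no value beyond its interval (Ikzf2 in B cells -3.33 and -3.25). Thinning to 1000 UMIs gave log2 ratios of the shares with Ikzf2 of -1.05 in CD8 T and -1.64 in CD4 T cells.

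CD8 T cells were also split on each gene alone, which sets cells with the gene against all CD8 T cells without it. This contrast is not the one with cells that have none of the 3 genes. Its Ikzf2 log2 ratios were 1.82 (Klra6) under lenvatinib, and 0.66 and 0.22 (Pdcd1) and 0.53 and -0.53 (Gzmk) under lenvatinib and combo. For the subsets against cells with none, leaving out cycling cells gave 1.93 (Klra6) and 1.10 (Pdcd1) under lenvatinib. For Foxp3 against CD4 T cells, gates on 2 UMIs gave 1.94 and 3.61 for Ikzf2, leaving out cycling cells 3.79 under combo, and CD4 T cells without Treg UMIs 3.76 and 4.56, with 3.63 for Ikzf4 under lenvatinib (against 3 UMIs). Of genes split by Ikzf2 in CD8 T cells, leaving out Klra6 cells gave 3 lower genes in place of 1, splitting after thinning 15 higher and 7 lower in place of 26 and 1, and leaving out cycling cells 17 higher. Among named genes the direction turned for H2-Ab1 under combo, from 2.27 to 0.573 without cycling cells and 0.666 without Klra6 cells, and without cycling cells for Ube2c under lenvatinib (0.865) and Hist1h1b under combo (0.987).

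The depth limits the combo Foxp3 cells most: with 48 cells, 3 UMIs are worth 10.8 CPM there, against 1.68 CPM under lenvatinib.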

Other observations

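The cells that entered no class were a large part of both libraries, 7080 under lenvatinib and 5375 under combo, and they held much Ikzf2. Its level there was 326 CPM (321 to 331) under lenvatinib and 109 CPM (106 to 112) under combo, a ratio of 0.334, with up to 68 and 33 UMIs in one cell. After thinning, 28.4% and 12.9% of these cells held an Ikzf2 UMI, above the share in neutrophils in both libraries. Ikzf4 stood at 6.89 and 2.33 CPM in them, Ikzf1 at 266 and 163 CPM and Ikzf3 at 125 and 54.3 CPM. These cells were not named, since they passed no gate, and no cell type is given for the Ikzf2 found there.

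NK cells with neither Cd200r1 or Itga1 nor a Ly49 receptor, 418 and 205 cells, held 153 and 90.7 CPM of Ikzf2. In the Ly49 NK cells the ratio of combo to lenvatinib was 0.309, compared with 0.822 in the cells with Cd200r1 or Itga1. The difference between these ratios was not tested, as each rests on 1 library per treatment.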
